A study of Mus musculus with 48 samples.

Results

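The comparison described here is that of corticosterone with vehicle in mice fed atglistatin, made in gastrocnemius, a calf muscle of mixed fibre type. It holds every library whose column name starts with Cort_ATGLi (14) or EtOH_ATGLi (10), together 24 of the 48 libraries of the series. Cort_ATGLi mice drank water with corticosterone at 100 ug/ml, and EtOH_ATGLi mice drank water with 1% ethanol as vehicle, both for 2 weeks. All mice of both groups were C57BL6J males that ate Teklad 8640 chow with atglistatin milled in at 571 mg/kg, and all carried the label nondiabetic. The other 24 libraries, Cort_CON (14) and EtOH_CON (10), came from the same water treatments without atglistatin and are used only to set the response beside that on the control diet. The labels do not say whether the corticosterone water also contained ethanol, so ethanol and corticosterone cannot be told apart if it did not. The sources used here give no age, body weight, food intake or muscle mass. No label states that each library is a separate animal, but each has its own glucose and insulin value, and p-values here measure how far these samples spread, which may in part be technical.

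Corticosterone is the main glucocorticoid of mice. It binds the glucocorticoid receptor, a transcription factor held in the cytosol by chaperones, which then enters the nucleus and raises or lowers genes. In muscle, glucocorticoids are known for raising ubiquitin ligases and autophagy genes of protein breakdown, for lowering insulin signalling, and for dampening inflammation and matrix synthesis. Atglistatin inhibits adipose triglyceride lipase (ATGL, the product of Pnpla2), the enzyme that takes the first fatty acid off stored triglyceride, and lowers the release of fatty acids from fat.

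RNA was sequenced from the 3′ end of transcripts (QuantSeq, 50 bp forward reads), and read counts per gene were scaled here to CPM, a gene's count relative to the total of its library after TMM scaling. Total counts ran from 11283326 to 18743702 in Cort_ATGLi and from 10453888 to 24034481 in EtOH_ATGLi. Before TMM scaling, 1 CPM thus stood for 10 to 24 counts of reads, which are not independent molecules. Counts were even numbers throughout in 47 of the 48 libraries. The exception was EtOH_ATGLi p13, in which 49.6% of the counts were odd. If each read was counted 2 times in the 47 libraries, which the sources used here do not state, 1 CPM stood for fewer reads in them. Library p41 of Cort_ATGLi stood apart from its group. It had the lowest median correlation with the others (0.957, where the other group members ran from 0.964 to 0.979), the lowest insulin value of the group (2.19), and the highest level of the group in 73 and the lowest in 55 of 238 genes chosen for naming. Several results that rest on it are given with and without it. Others in which p41 stood highest are given only with it. Among them are Tnfrsf12a (20.1 CPM, next library 9.81 CPM), H19 (1770 and 1057 CPM) and Cryab (3996 and 2583 CPM). Of 12 myofibre markers, all were in the table, and their summed level was 90900 to 155400 CPM in Cort_ATGLi and 125500 to 157400 CPM in EtOH_ATGLi. Of these markers 4 rose and 2 fell. Because the samples are bulk tissue, fewer cells of a type and less RNA per cell cannot be told apart.

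Corticosterone changed the level of 3781 of 12592 genes tested (30%) at an adjusted p below 0.05, 1887 higher (15%) and 1894 lower (15%). The falls were deeper than the rises. The called rises had a median log2 fold change of 0.41 and the called falls one of -0.58, against -0.0016 over all genes tested, and of 646 genes that changed at least 2-fold (5.13%), 271 were higher (2.15%) and 375 lower (2.98%). The count of 646 was 422 with a stricter filter on low counts, 492 with halved counts and 751 with no filter. In 435 genes (3.45%) no Cort_ATGLi library overlapped any EtOH_ATGLi library. Of these 435, 232 were higher (1.84%) and 203 lower (1.61%), and all 435 passed the test. With upper-quartile scaling in place of TMM, 1485 genes were higher and 2259 lower, so 39.7% of the calls were higher, against 49.9% as reported. The median log2 fold change of all genes was -0.045 with that scaling. Below, levels given in threes are the lowest, the median and the highest library of a group, log2 fold changes are Cort_ATGLi over EtOH_ATGLi with their standard error (SE), and a gene is said to rise or fall only where it passed the test. Counts of list members called are to be read beside the 15% of all genes called in each direction. The lists were chosen with earlier results of these data known, so these counts are descriptions, not tests.

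**Figure D1:**
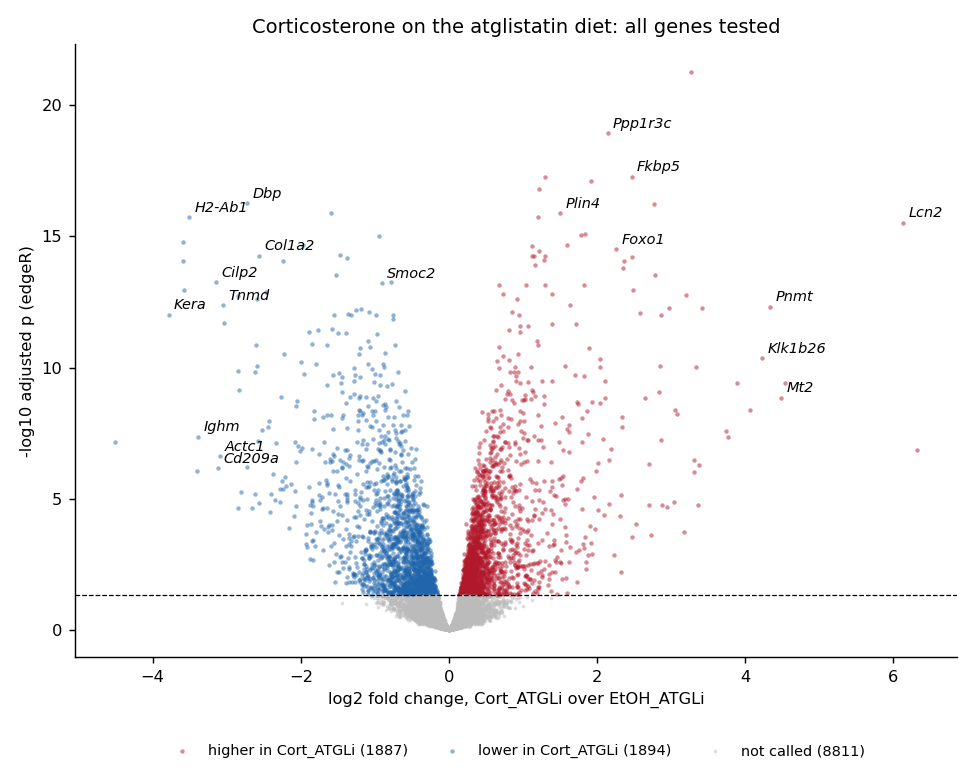
Each point is a gene tested, with its log2 fold change of Cort_ATGLi over EtOH_ATGLi on the x axis and the -log10 adjusted p (edgeR) on the y axis; the dashed line marks an adjusted p of 0.05. Red points are the 1887 genes called higher and blue points the 1894 called lower, with Lcn2 far to the right at 6.13.

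Fed glucose overlapped between the groups, and insulin did not. Fed glucose was 95, 115 and 138 (lowest, median and highest) in Cort_ATGLi, against 100, 119 and 159 in EtOH_ATGLi, in a unit the labels do not state. The means were 114.9 ± 14.8 (SD, n = 14) and 120.9 ± 16.5 (SD, n = 10), a difference of -5.97 that did not pass a two-sided permutation test (p = 0.37). Insulin was 2.19, 13.8 and 36.0 in Cort_ATGLi, against 0.464, 1.03 and 2.05 in EtOH_ATGLi, again without a stated unit. The lowest Cort_ATGLi value lay just above the highest EtOH_ATGLi value, and the Cort_ATGLi values spread more than 10-fold. Mean insulin was 17.8 ± 11.7 (SD, n = 14) in Cort_ATGLi and 1.17 ± 0.51 (SD, n = 10) in EtOH_ATGLi, and the difference of 16.6 passed (two-sided permutation test, p = 0.00032, adjusted p = 0.00064 over the 2 measures). Insulin itself regulates muscle genes, so the response to corticosterone and that to higher insulin cannot be told apart in these groups.

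**Figure D2:**
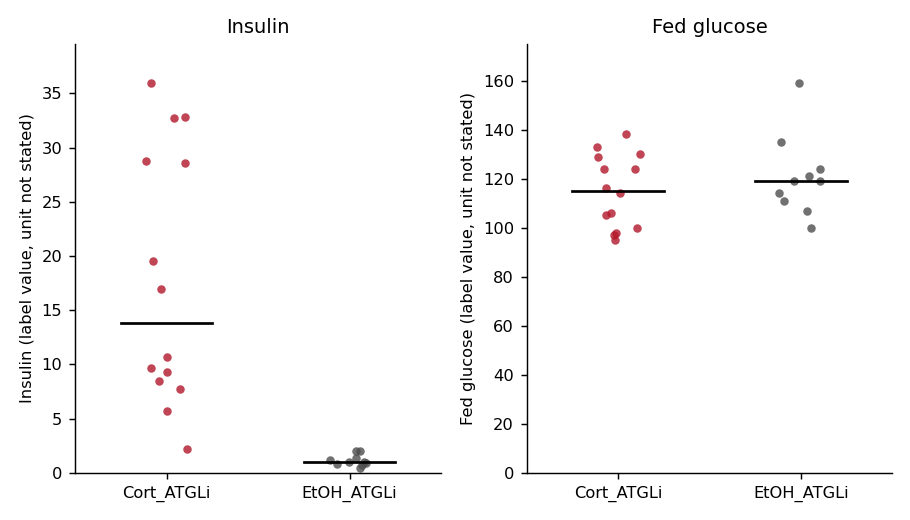
Insulin (left) and fed glucose (right) as the labels give them, with 1 point per library, Cort_ATGLi in red and EtOH_ATGLi in grey, and the median as a line. All Cort_ATGLi insulin values (2.19 to 36.0) lie above all EtOH_ATGLi values (0.464 to 2.05), while glucose overlaps between the groups.

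The receptor itself was lower and its feedback inhibitor higher. Nr3c1, which encodes the glucocorticoid receptor, was 28.3, 42.8 and 53 CPM in Cort_ATGLi, against 44.9, 52.4 and 63.8 CPM in EtOH_ATGLi (log2 fold change -0.31, SE 0.079, adjusted p = 0.0018). The groups overlapped, and the fall was modest. Fkbp5 (chromosome 17, 28399094 to 28517527 on GRCm38), a co-chaperone that lowers the receptor's affinity for hormone and is itself a receptor target, was 184, 273 and 361 CPM in Cort_ATGLi, against 29.2, 49.1 and 77.3 CPM in EtOH_ATGLi (log2 fold change 2.47, SE 0.15, adjusted p = 5.16e-18). No Cort_ATGLi library came near the vehicle range. Of 16 genes of the receptor, its chaperones, coregulators and the enzymes that regenerate hormone, 5 rose and 1 fell, with a median log2 fold change of 0.14. H6pd, which supplies NADPH for hormone regeneration in the endoplasmic reticulum, rose by 0.46 (SE 0.10), and the Hsp70-Hsp90 organising protein gene Stip1 by 0.19 (SE 0.057). Hsd11b1, the enzyme that regenerates corticosterone from its inactive form, was 3.08, 6.16 and 14.5 CPM in Cort_ATGLi, against 3.38, 5.85 and 7.46 CPM in EtOH_ATGLi and did not pass (log2 fold change 0.16, SE 0.16, adjusted p = 0.49). Without p41 its log2 fold change was -0.0011.

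Of 34 known receptor targets, 28 rose and 1 fell, with a median log2 fold change of 1.12, against -0.0016 over all genes. In 14 of those that rose, no library overlapped between the groups, while 1.84% of all genes tested were higher without overlap. Several encode other regulators. Foxo1, a transcription factor that turns on genes of fasting and protein breakdown, was 73.8, 145 and 181 CPM in Cort_ATGLi, against 18.3, 25.7 and 48.2 CPM in EtOH_ATGLi (log2 fold change 2.26, SE 0.17, adjusted p = 3.11e-15). Foxo3, a relative with overlapping targets, rose by 1.02 (SE 0.12) and also showed no overlap. Cdkn1a, the cell cycle inhibitor p21, was 82.3, 178 and 344 CPM in Cort_ATGLi, against 12.3, 30.6 and 52.4 CPM in EtOH_ATGLi (log2 fold change 2.64, SE 0.30, adjusted p = 1.44e-09), again with the groups apart. Ddit4, an inhibitor of mTOR complex 1, rose by 2.47 (SE 0.53), Cebpd, a transcription factor, by 1.96 (SE 0.33), and Arrdc3, an arrestin-like adaptor, by 1.7 (SE 0.18). Some targets often used as readouts of the receptor in other tissues had smaller fold changes, while Fkbp5, also on this list, rose by 2.47. Tsc22d3, known as GILZ, rose by 0.58 (SE 0.089), and Klf15, a transcription factor of amino acid breakdown, by 0.74 (SE 0.17), both with overlapping groups. Per1, a clock gene with a receptor site, was at 0.67 (SE 0.24, adjusted p = 0.0293) and missed the threshold when EtOH_ATGLi p05, p06, p07, p12 or p13 was left out (0.58 to 0.63, adjusted p from 0.0555 to 0.0641). Bcl6, a transcriptional repressor, was the member that fell, at -0.74 (SE 0.13).

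**Figure D3:**
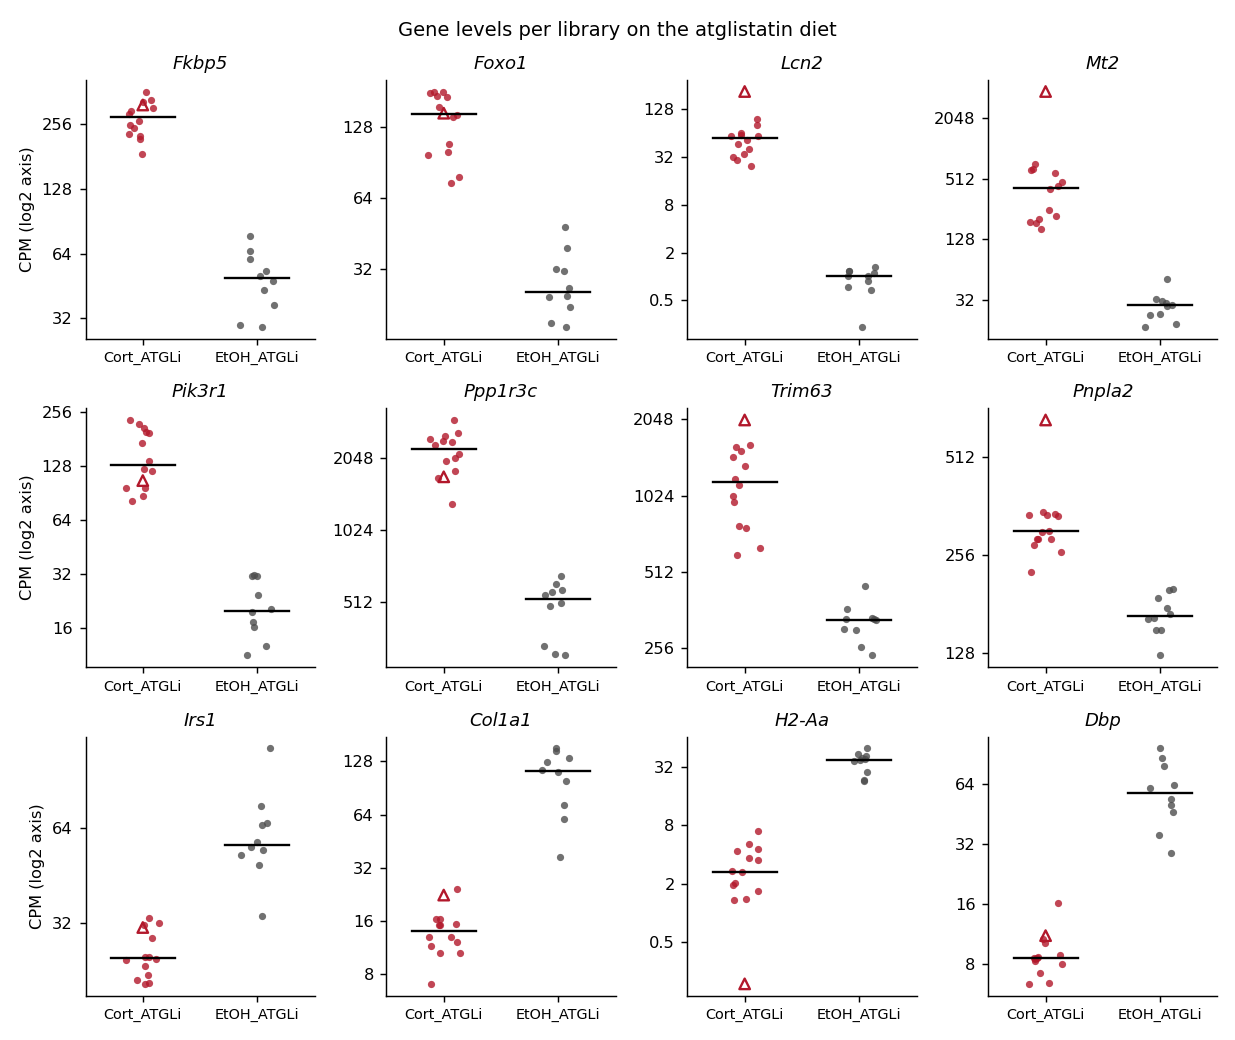
CPM on a log2 axis for 12 genes in each library, with 1 point per library, Cort_ATGLi in red on the left and EtOH_ATGLi in grey on the right, and the median as a line; the open triangle is library p41 of Cort_ATGLi. The groups do not overlap in any of these 12 genes, and p41 is the highest library for Lcn2, Mt2, Trim63 and Pnpla2 and the lowest for H2-Aa.

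With a mean of 5 CPM or more required, the largest rise was that of Lcn2 (chromosome 2, 32384633 to 32388252), which encodes lipocalin 2, a secreted protein that binds bacterial iron carriers. Lcn2 was 25.1, 55.9 and 215 CPM in Cort_ATGLi, against 0.232, 1.01 and 1.33 CPM in EtOH_ATGLi (log2 fold change 6.13, SE 0.40, adjusted p = 2.94e-16). Its lowest Cort_ATGLi library was far above the highest vehicle library, and the highest, p41, was at 215 CPM where the next was at 97.0 CPM. Without p41 the log2 fold change was 5.84 (SE 0.34, adjusted p = 1.11e-17). The metallothionein genes Mt2 and Mt1, whose small proteins bind zinc and copper, were also among the 5 largest rises. Mt2 was 163, 416 and 3770.2 CPM in Cort_ATGLi, against 17.3, 28.2 and 51.2 CPM in EtOH_ATGLi (log2 fold change 4.48, SE 0.50, adjusted p = 1.41e-09), and Mt1 was 238, 417 and 3614 CPM in Cort_ATGLi, against 26.6, 41.4 and 61.2 CPM in EtOH_ATGLi (log2 fold change 3.88, SE 0.42, adjusted p = 4.00e-10). The groups were apart in both genes, and p41 alone held the top values, with the next library at 714 CPM for Mt2 and 642 CPM for Mt1. Without p41 the log2 fold change was 3.79 (SE 0.37, adjusted p = 5.57e-11) for Mt2 and 3.25 (SE 0.28, adjusted p = 1.44e-12) for Mt1. The metal and oxidative stress list as a whole did not move one way, with 11 of 31 higher and 6 lower. The secreted glutathione peroxidase gene Gpx3 rose by 1.0 (SE 0.12), while the transferrin receptor gene Tfrc fell by 0.89 (SE 0.14) and the quinone reductase gene Nqo1 by 0.69 (SE 0.12) on the log2 scale.

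The promoters of Lcn2, Mt1 and Mt2 are shown because the rises of these genes were among the largest changes. Each is 300 bases, from 250 before to 50 after the RefSeq start (GRCm38.p6), in the direction of transcription. Capitals mark ACANNNTGT, a core of the palindromic glucocorticoid receptor site, in Lcn2, and TGCACNC or TGCGCNC, the metal response element core in its A and G forms (searched on both strands), in Mt1 and Mt2. A match of ACANNNTGT in Mt1 is left in lower case.
Lcn2: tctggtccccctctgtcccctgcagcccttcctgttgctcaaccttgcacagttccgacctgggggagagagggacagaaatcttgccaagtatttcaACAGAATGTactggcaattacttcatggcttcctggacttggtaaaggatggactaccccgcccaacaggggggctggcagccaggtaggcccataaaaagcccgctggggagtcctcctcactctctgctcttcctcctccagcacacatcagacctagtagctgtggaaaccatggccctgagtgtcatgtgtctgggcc
Mt1: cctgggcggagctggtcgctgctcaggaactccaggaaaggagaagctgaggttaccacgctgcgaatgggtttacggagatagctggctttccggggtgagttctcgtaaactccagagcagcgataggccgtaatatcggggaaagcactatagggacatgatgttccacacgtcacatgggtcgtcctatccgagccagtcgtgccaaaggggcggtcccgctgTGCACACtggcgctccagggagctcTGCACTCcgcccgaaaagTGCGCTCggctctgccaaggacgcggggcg
Mt2: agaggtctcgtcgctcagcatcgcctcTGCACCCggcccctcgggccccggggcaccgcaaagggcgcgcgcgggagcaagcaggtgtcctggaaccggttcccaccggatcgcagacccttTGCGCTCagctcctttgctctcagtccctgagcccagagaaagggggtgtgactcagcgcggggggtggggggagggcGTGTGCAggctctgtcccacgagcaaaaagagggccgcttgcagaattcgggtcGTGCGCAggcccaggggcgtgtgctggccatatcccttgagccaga
The Lcn2 window (chr2:32387690-32387989, minus strand) held 1 match of ACANNNTGT, which 6.85% of 32851 promoters of this length hold. The Mt1 window (chr8:94178839-94179138, plus strand) also held 1 match of ACANNNTGT, with 3 metal cores, and that of Mt2 (chr8:94172368-94172667, plus strand) held 0 and 4. Of all promoters, 1.97% held 3 or more cores of either form and 0.52% held 4 or more. Among promoters of genes tested, these shares were 3.3% and 0.88%, and 4.31% held ACANNNTGT. These matches are descriptions of the letters, not of binding.

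Other acute phase and inflammatory genes divided. Of 24 acute phase and complement genes, 6 rose and 7 fell. Il6ra, the interleukin 6 receptor, was 18.3, 38.6 and 63.2 CPM in Cort_ATGLi, against 3.44, 6.81 and 12.1 CPM in EtOH_ATGLi (log2 fold change 2.48, SE 0.20, adjusted p = 1.06e-13), with no overlap. Hp, which encodes the haemoglobin scavenger haptoglobin, was 10.5, 32.5 and 145 CPM in Cort_ATGLi, against 2.32, 5.17 and 7.85 CPM in EtOH_ATGLi (log2 fold change 2.87, SE 0.38, adjusted p = 6.04e-08), and 2.51 (SE 0.32, adjusted p = 3.45e-08) without p41, whose 145 CPM stood above the next library's 44.1 CPM. Serpina3n, a secreted protease inhibitor, depended on p41 more. It was 3.16, 9.21 and 186 CPM in Cort_ATGLi, against 1.18, 2.52 and 4.35 CPM in EtOH_ATGLi (log2 fold change 2.94, SE 0.53, adjusted p = 2.06e-05), and the log2 fold change was 1.6 (SE 0.22, adjusted p = 7.57e-08) without p41 and 1.59 with DESeq2, where the next highest library was at 10.9 CPM. Among the members that fell were the complement genes C1ra at -0.76 (SE 0.13) and C1s1 at -0.72 (SE 0.13), and the C1 inhibitor gene Serping1 at -0.48 (SE 0.090). In the NF-kB and cytokine list, 4 of 27 genes rose (14.8%) and 5 fell (18.5%), near the 15% of all genes called each way. The B cell chemokine gene Cxcl13 was 2.28, 6.33 and 46.6 CPM in Cort_ATGLi, against 0.194, 0.583 and 3.02 CPM in EtOH_ATGLi (log2 fold change 3.31, SE 0.50, adjusted p = 9.60e-07), and 2.71 (SE 0.39, adjusted p = 4.71e-07) without p41. The TWEAK receptor gene Tnfrsf12a rose by 1.41 (SE 0.24), while the chemokine gene Cxcl12 fell by 0.89 (SE 0.10) with no overlap, and the NF-kB subunit gene Relb by 0.87 (SE 0.15).

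Among genes of muscle protein breakdown, both of the best-known muscle ubiquitin ligases rose. Trim63 (MuRF1), which tags myofibrillar proteins for the proteasome, was 597, 1159 and 2039 CPM in Cort_ATGLi, against 239, 330.5 and 448 CPM in EtOH_ATGLi (log2 fold change 1.88, SE 0.24, adjusted p = 3.40e-08). Fbxo32 (atrogin-1), the other ligase, was 559, 799 and 1004 CPM in Cort_ATGLi, against 229, 347 and 475 CPM in EtOH_ATGLi (log2 fold change 1.21, SE 0.18, adjusted p = 3.73e-07). In both genes every Cort_ATGLi library was above every vehicle library. Of 35 atrophy and myostatin pathway genes, 14 rose and 4 fell, with a median log2 fold change of 0.092. Myostatin, Mstn, a secreted brake on muscle growth, was 28.9, 55.7 and 97.5 CPM in Cort_ATGLi, against 28.7, 37.5 and 48.9 CPM in EtOH_ATGLi (log2 fold change 0.55, SE 0.14, adjusted p = 0.00168), with overlap. Its receptor gene Acvr1b rose by 1.02 (SE 0.12) with no overlap, whereas Smad3, a transcription factor downstream of that receptor, fell by 0.68 (SE 0.13), as did the ubiquitin ligase gene Fbxo30 by 0.35 (SE 0.11).

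Of 43 proteasome genes, 17 rose and 4 fell, with a median log2 fold change of 0.15, and 12 rose with upper-quartile scaling. Psmd8, a subunit of the regulatory cap, was 573, 719.8 and 1001 CPM in Cort_ATGLi, against 294, 425 and 477 CPM in EtOH_ATGLi (log2 fold change 0.88, SE 0.11, adjusted p = 2.21e-09), without overlap. The cap ATPase genes Psmc2 and Psmc5 rose by 0.44 (SE 0.070) and 0.38 (SE 0.072), both without overlap. Those that fell included the immunoproteasome subunits Psmb8 (-0.94, SE 0.17) and Psmb9 (-1.18, SE 0.26) and the activator Psme1 (-0.59, SE 0.10), which belong to antigen processing, and Psmb9 and Psme1 overlap Tap1 (1.78 CPM) and Emc9 (9.35 CPM) on the opposite strand. The counting is not stated to use strand. Of 31 autophagy and lysosome genes, 12 rose and 3 fell (median 0.19). Map1lc3a, a protein that coats autophagosomes, was 259, 353 and 533 CPM in Cort_ATGLi, against 157, 185 and 223 CPM in EtOH_ATGLi (log2 fold change 0.96, SE 0.12, adjusted p = 4.67e-09). Tfeb, a transcription factor of lysosomal genes, rose by 0.69 (SE 0.091) and the mitophagy receptor gene Bnip3 by 0.50 (SE 0.078), each with the groups apart. The autophagy kinase gene Ulk1 fell by 0.32 (SE 0.10).

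Insulin, IGF and mTOR genes went both ways. Of 40 tested, 13 rose and 8 fell. Pik3r1, the regulatory subunit of PI3 kinase, was 81.6, 130.1 and 231 CPM in Cort_ATGLi, against 11.2, 19.9 and 31.6 CPM in EtOH_ATGLi (log2 fold change 2.78, SE 0.21, adjusted p = 2.85e-14). Irs1, the substrate that links the insulin receptor to PI3 kinase, was 20.4, 24.6 and 33 CPM in Cort_ATGLi, against 33.7, 56.8 and 115 CPM in EtOH_ATGLi (log2 fold change -1.27, SE 0.14, adjusted p = 2.00e-10). Neither gene showed overlap, and they moved in opposite directions. Ptpn1, a phosphatase that switches off the insulin receptor, rose by 0.70 (SE 0.10), and Tbc1d1, a regulator of glucose transporter traffic, by 1.15 (SE 0.15). Igfbp5, an IGF-binding protein, was 16.5, 65.3 and 137 CPM in Cort_ATGLi, against 183, 272 and 362 CPM in EtOH_ATGLi (log2 fold change -1.85, SE 0.25, adjusted p = 1.32e-07), and Ddit4l, a relative of Ddit4, fell by 0.79 (SE 0.11), both with the groups apart. Igf1, the muscle growth factor, was 11.8, 16.6 and 26.9 CPM in Cort_ATGLi, against 16.2, 24 and 37 CPM in EtOH_ATGLi (log2 fold change -0.45, SE 0.17, adjusted p = 0.0419). That call was lost without EtOH_ATGLi p07, p09, p10, p11, p12 or p13 and without Cort_ATGLi p13, p17, p23, p24, p25, p38, p41 or p42 (-0.36 to -0.45, adjusted p from 0.0509 to 0.112).

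Glycolysis and glycogen genes went both ways, with 6 of 38 higher (15.8%) and 9 lower (23.7%). Of all genes tested, 15% were called each way. Ppp1r3c, a subunit that targets protein phosphatase 1 to glycogen, was 1320.5, 2228 and 2952 CPM in Cort_ATGLi, against 308, 529.6 and 657 CPM in EtOH_ATGLi (log2 fold change 2.14, SE 0.13, adjusted p = 1.13e-19). The branching enzyme gene Gbe1 rose by 0.79 (SE 0.093) without overlap, and the related targeting subunit gene Ppp1r3d by 0.72 (SE 0.14). Pfkfb3, which makes the activator of phosphofructokinase, was 58.7, 88.4 and 166 CPM in Cort_ATGLi, against 141, 236 and 374 CPM in EtOH_ATGLi (log2 fold change -1.39, SE 0.22, adjusted p = 1.70e-06), and the pyruvate kinase gene Pkm fell by 0.48 (SE 0.085). Aldoa, muscle aldolase, was among the 5 genes with the largest rise in mean CPM, at 11802, 16109 and 19380.0 CPM in Cort_ATGLi, against 11863, 13326 and 13746 CPM in EtOH_ATGLi (log2 fold change 0.33, SE 0.079, adjusted p = 7.20e-04). Pdk4, which switches muscle from glucose to fatty acids by inhibiting pyruvate dehydrogenase, was 33.6, 135 and 254 CPM in Cort_ATGLi, against 17.3, 45.7 and 83.8 CPM in EtOH_ATGLi (log2 fold change 1.49, SE 0.39, adjusted p = 0.00274), with overlap.

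The target of the diet drug was itself higher. Pnpla2, which encodes ATGL, was 228, 303 and 666 CPM in Cort_ATGLi, against 126, 167 and 201 CPM in EtOH_ATGLi (log2 fold change 0.96, SE 0.15, adjusted p = 2.70e-06). The groups did not overlap, p41 at 666 CPM stood above the next library at 349 CPM, and without it the log2 fold change was 0.84 (SE 0.14, adjusted p = 3.04e-06). G0s2, the natural protein inhibitor of ATGL, was 23.6, 56.3 and 127 CPM in Cort_ATGLi, against 7.61, 15 and 29.6 CPM in EtOH_ATGLi (log2 fold change 2.03, SE 0.23, adjusted p = 2.26e-09), whereas its coactivator Abhd5 was at -0.15 (SE 0.077) and passed only without Cort_ATGLi p24 (-0.19, adjusted p = 0.0430). Of 26 lipid droplet and lipolysis genes, 13 rose and 1 fell, with a median log2 fold change of 0.21. Among the droplet coat proteins, Plin4 was 244, 387 and 442 CPM in Cort_ATGLi, against 95.7, 129 and 167 CPM in EtOH_ATGLi (log2 fold change 1.5, SE 0.11, adjusted p = 1.31e-16), Plin5 rose by 1.52 (SE 0.24) and Plin3 by 0.90 (SE 0.10). Plin4 overlaps Hdgfl2 (26.5 CPM) on the other strand. Plin2, the coat most widespread among tissues, was 7.72, 9.05 and 26.9 CPM in Cort_ATGLi, against 9.13, 13 and 14.7 CPM in EtOH_ATGLi and did not pass (log2 fold change -0.22, SE 0.14, adjusted p = 0.262), but p41 was its highest library, at 26.9 CPM where the next was at 13.1 CPM, and without p41 it fell, at -0.41 (SE 0.11, adjusted p = 0.00223). Pnpla3, a droplet lipase and acyltransferase of the same family as ATGL, was 2.81, 12.2 and 20.2 CPM in Cort_ATGLi, against 0.928, 1.53 and 3.19 CPM in EtOH_ATGLi (log2 fold change 2.87, SE 0.25, adjusted p = 1.00e-12). The droplet fusion protein genes Cidec and Cidea rose by 0.94 (SE 0.32) and 1.11 (SE 0.32).

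Of 44 fatty acid uptake and oxidation genes, 19 rose and 3 fell (median 0.21). Cd36, a fatty acid transporter, was 104, 123 and 168 CPM in Cort_ATGLi, against 59.7, 77.8 and 96.1 CPM in EtOH_ATGLi (log2 fold change 0.70, SE 0.088, adjusted p = 6.30e-09), without overlap. Eci2, an enoyl-CoA isomerase, rose by 0.53 (SE 0.10). Angptl4, a secreted inhibitor of lipoprotein lipase, was 2.11, 4.44 and 16.9 CPM in Cort_ATGLi, against 0.387, 1.17 and 4.47 CPM in EtOH_ATGLi (log2 fold change 1.97, SE 0.40, adjusted p = 1.52e-04). Oxct1, which starts the use of ketone bodies, fell by 0.49 (SE 0.13), and the coactivator gene Ppargc1b by 0.73 (SE 0.11). Fatty acid and cholesterol synthesis ran lower, with 2 of 32 genes higher and 10 lower (median -0.20). Srebf2, the master regulator of cholesterol synthesis, fell by 0.58 (SE 0.16), its target Hmgcs1 by 0.30 (SE 0.070) and Insig1 by 0.85 (SE 0.21), while Lss, lanosterol synthase, rose by 0.86 (SE 0.19).

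Amino acid genes had 14 of 38 members higher and 3 lower. Glul, glutamine synthetase, through which muscle exports nitrogen, was 574, 831 and 1362 CPM in Cort_ATGLi, against 194, 269 and 426 CPM in EtOH_ATGLi (log2 fold change 1.57, SE 0.16, adjusted p = 8.59e-11). Glul overlaps Teddm2 (6.55 CPM) on the other strand. Gnmt, which uses up methyl groups by methylating glycine, was 12.2, 17.5 and 30.2 CPM in Cort_ATGLi, against 0.464, 1.93 and 3.74 CPM in EtOH_ATGLi (log2 fold change 3.19, SE 0.26, adjusted p = 1.76e-13), and Oat, ornithine aminotransferase, was 177, 228 and 289.6 CPM in Cort_ATGLi, against 84.4, 109 and 129 CPM in EtOH_ATGLi (log2 fold change 1.04, SE 0.091, adjusted p = 7.27e-14). In all 3 the groups were apart. In polyamine metabolism 1 of 12 genes rose and 4 fell. Odc1, the enzyme that makes putrescine, rose by 0.75 (SE 0.15). Amd1, which supplies the aminopropyl groups for spermidine and spermine, was 38.9, 169.8 and 273 CPM in Cort_ATGLi, against 267, 447 and 742 CPM in EtOH_ATGLi (log2 fold change -1.52, SE 0.21, adjusted p = 1.15e-07), and its near-identical copy Amd2, with which it can share reads, was at -1.43 (SE 0.21). Smox, spermine oxidase, was 25.6, 88.8 and 139 CPM in Cort_ATGLi, against 151, 209 and 486 CPM in EtOH_ATGLi (log2 fold change -1.38, SE 0.24, adjusted p = 1.19e-05), with no overlap. Pnmt, the enzyme that makes adrenaline from noradrenaline, was among the 5 largest rises too, at 14.1, 21.6 and 39.2 CPM in Cort_ATGLi, against 0.145, 0.843 and 2.46 CPM in EtOH_ATGLi (log2 fold change 4.34, SE 0.37, adjusted p = 4.76e-13), although in the adrenergic and catecholamine list only 1 of 17 genes rose and 2 fell. Klk1b26, a kallikrein-family protease, was 3.83, 7.81 and 13.5 CPM in Cort_ATGLi, against 0, 0.244 and 1.59 CPM in EtOH_ATGLi (log2 fold change 4.23, SE 0.42, adjusted p = 4.52e-11), and reads from its close relatives could be counted with it.

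Most ribosomal protein genes rose, by small amounts. Of 81 cytosolic ribosomal protein genes, 62 rose and the rest did not pass. Their log2 fold changes ran from 0.12 to 0.55 with a median of 0.29, and 47 rose with upper-quartile scaling. Rps27 was 319, 369.9 and 502 CPM in Cort_ATGLi, against 239, 261 and 300.4 CPM in EtOH_ATGLi (log2 fold change 0.55, SE 0.087, adjusted p = 1.49e-06), Rps28 rose by 0.46 (SE 0.072) and Rpl18 by 0.47 (SE 0.072), each without overlap. Of 25 translation factor genes, 14 rose and the rest did not pass. Eif3f, a subunit of the initiation complex, was 176, 214 and 249 CPM in Cort_ATGLi, against 120.0, 134 and 158 CPM in EtOH_ATGLi (log2 fold change 0.65, SE 0.070, adjusted p = 5.79e-11), Eif2b1, a subunit of the exchange factor for eIF2, rose by 0.46 (SE 0.071), and Eef2k, the kinase that inhibits elongation, by 0.93 (SE 0.12). Genes of the respiratory chain showed little change, 4 of 81 nuclear-encoded members higher and 1 lower, below the 15% of all genes called each way. Of 8 mitochondrially encoded genes, 2 rose, mt-Nd5 by 0.24 (SE 0.078) and mt-Nd6 by 0.99 (SE 0.20), which overlap on opposite strands.

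Contractile genes moved in both directions. Of 17 slow fibre genes, 10 rose and the rest did not pass, with a median log2 fold change of 0.66. Ankrd2, a stretch-responsive protein of slow muscle, was 202, 309 and 849.6 CPM in Cort_ATGLi, against 72.1, 122 and 171 CPM in EtOH_ATGLi (log2 fold change 1.62, SE 0.21, adjusted p = 2.93e-08), without overlap, Myoz2, a Z-disc protein, rose by 1.2 (SE 0.15), and Casq2, the slow calsequestrin, by 1.06 (SE 0.15). The slow myosin gene Myh7 was at 0.66 (SE 0.27) and did not pass (adjusted p = 0.0662), though it did without EtOH_ATGLi p13 (0.75, adjusted p = 0.0433) or Cort_ATGLi p41 (0.71, adjusted p = 0.0477), with DESeq2 (adjusted p = 0.0494) and in the atglistatin libraries alone (adjusted p = 0.0306). Sln, sarcolipin, an inhibitor of the calcium pump, was 5.19, 9.82 and 238 CPM in Cort_ATGLi, against 1.74, 2.76 and 4.56 CPM in EtOH_ATGLi (log2 fold change 3.17, SE 0.66, adjusted p = 1.97e-04), and 1.72 (SE 0.43, adjusted p = 0.00176) without p41 and 2.06 with limma-voom, where the next highest library was at 18.3 CPM. Of 18 fast fibre genes 9 rose and 5 fell. Mylk2, the kinase of the myosin light chain, was 702, 824 and 1181 CPM in Cort_ATGLi, against 368, 417 and 618 CPM in EtOH_ATGLi (log2 fold change 0.96, SE 0.093, adjusted p = 2.68e-12), and Actn3, alpha-actinin of fast fibres, was 4264, 5411 and 6713 CPM in Cort_ATGLi, against 2876, 3208 and 3801 CPM in EtOH_ATGLi (log2 fold change 0.70, SE 0.081, adjusted p = 4.51e-10), both without overlap.

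Some of the most abundant muscle transcripts were lower. Myl1, a fast alkali light chain, was 2462, 6162 and 9831 CPM in Cort_ATGLi, against 11758, 13953 and 18266 CPM in EtOH_ATGLi (log2 fold change -1.2, SE 0.14, adjusted p = 1.20e-09), without overlap. Tpm1, a tropomyosin, was 5656, 16022 and 22693 CPM in Cort_ATGLi, against 19138, 22895 and 27230.0 CPM in EtOH_ATGLi (log2 fold change -0.59, SE 0.11, adjusted p = 3.10e-05), and Pvalb, the calcium buffer parvalbumin, was 2898, 7884 and 12235 CPM in Cort_ATGLi, against 9971, 12815 and 15572 CPM in EtOH_ATGLi (log2 fold change -0.71, SE 0.13, adjusted p = 2.06e-05), both with overlap. Library p41 was the lowest for all 3, and without it the log2 fold changes were -1.14, -0.52 and -0.64. Car3, carbonic anhydrase 3, was 302, 1288 and 2323 CPM in Cort_ATGLi, against 2354, 2919 and 3386 CPM in EtOH_ATGLi (log2 fold change -1.08, SE 0.27, adjusted p = 0.00193), again with p41 lowest. Actc1, the cardiac actin that skeletal muscle makes in development and repair, had one of the largest falls, at 9.61, 19.4 and 35.3 CPM in Cort_ATGLi, against 98.2, 169.7 and 306 CPM in EtOH_ATGLi (log2 fold change -3.1, SE 0.43, adjusted p = 2.37e-07). Others among the largest falls in muscle genes were Nmrk2, a nicotinamide riboside kinase of NAD synthesis (-2.62, SE 0.27), and Dupd1, a dual-specificity phosphatase (-2.83, SE 0.31). Nmrk2 overlaps Atcayos (115 CPM) on the other strand. Rises in mean CPM were largest in Aldoa, the light chain gene Mylpf (0.39, SE 0.11), the calcium pump gene Atp2a1 (0.32, SE 0.061), Actn3 and the triadin gene Trdn (0.27, SE 0.085).

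Calcium handling genes had 7 of 25 members higher and 6 lower. Casq1, the fast calsequestrin that stores calcium, was 525, 816 and 1031 CPM in Cort_ATGLi, against 1078, 1458 and 1602 CPM in EtOH_ATGLi (log2 fold change -0.76, SE 0.10, adjusted p = 1.51e-08), with no overlap, and so moved opposite to Casq2. Cacng1, a subunit of the voltage sensor channel, rose by 0.50 (SE 0.092), and Camk2b, a calcium-dependent kinase, by 0.39 (SE 0.064), each without overlap, while the store-operated channel gene Orai1 fell by 0.37 (SE 0.076). Of 20 neuromuscular junction and denervation genes, 8 rose and 3 fell. Chrnb1, an acetylcholine receptor subunit, rose by 0.68 (SE 0.12), and the sodium channel gene Scn4a by 0.40 (SE 0.10). Hdac4, a repressor that denervation raises, fell by 0.49 (SE 0.11).

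The circadian clock list split, with 5 of 22 genes higher and 7 lower. Dbp, a transcription factor with a daily rhythm, was 6.37, 8.56 and 16.1 CPM in Cort_ATGLi, against 28.9, 57.5 and 96.6 CPM in EtOH_ATGLi (log2 fold change -2.72, SE 0.17, adjusted p = 5.29e-17). It overlaps Sphk2 (16.2 CPM) on the other strand, and its relative Hlf fell by 0.61 (SE 0.10). Nfil3, the repressor that competes with Dbp for the same sites, was 22.8, 42.9 and 56.4 CPM in Cort_ATGLi, against 8.36, 11.5 and 17.2 CPM in EtOH_ATGLi (log2 fold change 1.82, SE 0.15, adjusted p = 7.10e-14). Dbp and Nfil3 thus moved in opposite directions, each with the groups apart. Rora, an activator in the clock loop, rose by 0.71 (SE 0.14), and Bhlhe41, a clock repressor, fell by 0.62 (SE 0.12). The time of day at which tissue was taken is not among the labels.

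Most of the extracellular matrix genes tested fell. Of 29 collagen genes, 21 fell and the rest did not pass, with a median log2 fold change of -1.08, and 11 of the falls showed no overlap. Among all genes tested, 1.61% were lower without overlap. Col1a1 (chromosome 11, 94936224 to 94953042), the main chain of type I collagen, was 7.06, 14 and 24.2 CPM in Cort_ATGLi, against 36.6, 113 and 151 CPM in EtOH_ATGLi (log2 fold change -2.85, SE 0.23, adjusted p = 1.82e-13). Its partner Col1a2 was 16.4, 26.2 and 37.4 CPM in Cort_ATGLi, against 97.7, 154 and 265 CPM in EtOH_ATGLi (log2 fold change -2.57, SE 0.19, adjusted p = 5.41e-15), and Col3a1, of reticular fibres, was 4.98, 8.24 and 18 CPM in Cort_ATGLi, against 23.2, 62.8 and 87.3 CPM in EtOH_ATGLi (log2 fold change -2.6, SE 0.21, adjusted p = 2.39e-13). Not one Cort_ATGLi library reached the lowest vehicle library in these genes. Col15a1, a basement-membrane-zone collagen, fell by 2.47 (SE 0.21), whereas the basement membrane chains Col4a1 (-0.10, SE 0.15) and Col4a2 (-0.24, SE 0.13) did not pass. Without p41 Col4a2 passed at -0.32 (SE 0.12, adjusted p = 0.0375).

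Of 26 genes for collagen processing, crosslinking and turnover, 15 fell and 4 rose. Loxl2, a crosslinking enzyme, was 0.779, 2.19 and 3.61 CPM in Cort_ATGLi, against 6.0, 7.12 and 8.66 CPM in EtOH_ATGLi (log2 fold change -1.65, SE 0.17, adjusted p = 1.37e-11), the gelatinase gene Mmp2 fell by 1.5 (SE 0.15), both without overlap, and the procollagen peptidase enhancer Pcolce by 1.06 (SE 0.11). Lox, another crosslinking enzyme, was higher at 0.74 (SE 0.22) with all libraries and at 0.48 (SE 0.16, adjusted p = 0.0218) without p41. Of 46 matrix glycoprotein and proteoglycan genes, 33 fell and 1 rose, with a median of -0.61. Cilp2, a cartilage matrix protein, was 0.794, 2.5 and 6.31 CPM in Cort_ATGLi, against 14.1, 21.4 and 39.8 CPM in EtOH_ATGLi (log2 fold change -3.15, SE 0.25, adjusted p = 5.58e-14), Fn1, fibronectin, was 4.52, 6.57 and 11 CPM in Cort_ATGLi, against 18.3, 23 and 35.6 CPM in EtOH_ATGLi (log2 fold change -1.79, SE 0.18, adjusted p = 7.09e-11), and the fibrillin gene Fbn1 fell by 1.37 (SE 0.13), all without overlap. The member that rose was Lama2 (0.59, SE 0.12), the laminin chain of the muscle basement membrane.

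Markers of the connective tissue cells that make matrix were lower too, and their part in the collagen result was not tested. All 12 fibro-adipogenic progenitor markers were in the table, 11 fell and 1 did not pass, and their summed level was 1042 to 1343 CPM in Cort_ATGLi and 1370 to 2285 CPM in EtOH_ATGLi, without overlap. The defining marker Pdgfra fell as well, by 0.46 (SE 0.15, adjusted p = 0.0202). Smoc2 was 35, 43.4 and 54.7 CPM in Cort_ATGLi, against 67, 79.5 and 97.6 CPM in EtOH_ATGLi (log2 fold change -0.91, SE 0.079, adjusted p = 6.22e-14), Lum, the proteoglycan lumican, fell by 1.57 (SE 0.17) and Cd34 by 0.84 (SE 0.10). Of 8 tendon markers 7 fell and 1 rose, with a summed level of 86.3 to 158.1 CPM in Cort_ATGLi and 227.3 to 574.5 CPM in EtOH_ATGLi. Tnmd, tenomodulin of mature tendon, was 0.0919, 0.894 and 2.98 CPM in Cort_ATGLi, against 5.55, 9.39 and 15.9 CPM in EtOH_ATGLi (log2 fold change -3.05, SE 0.26, adjusted p = 4.19e-13), and Thbs4, a thrombospondin, was 40.4, 61.5 and 83.2 CPM in Cort_ATGLi, against 119, 150.0 and 297 CPM in EtOH_ATGLi (log2 fold change -1.44, SE 0.16, adjusted p = 8.70e-10). Chad, chondroadherin, fell by 2.58 (SE 0.34). Scx, the transcription factor that specifies tendon cells, went the other way at 15.9, 26.1 and 51 CPM in Cort_ATGLi, against 8.53, 11.5 and 14.1 CPM in EtOH_ATGLi (log2 fold change 1.21, SE 0.21, adjusted p = 1.16e-05), and it overlaps Bop1 (11.4 CPM) on the other strand.

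MHC class II genes, which present peptides to helper T cells, had the deepest falls at a mean of 5 CPM or more. H2-Aa (chromosome 17, 34282744 to 34287823) was 0.184, 2.66 and 7.03 CPM in Cort_ATGLi, against 22.9, 38.3 and 50.1 CPM in EtOH_ATGLi (log2 fold change -3.59, SE 0.27, adjusted p = 8.34e-15). H2-Ab1 was 0.460, 1.83 and 3.75 CPM in Cort_ATGLi, against 15.6, 22.4 and 26.3 CPM in EtOH_ATGLi (log2 fold change -3.51, SE 0.23, adjusted p = 1.85e-16), and H2-Eb1 was 0.184, 1.65 and 2.9 CPM in Cort_ATGLi, against 13.3, 21.1 and 23.8 CPM in EtOH_ATGLi (log2 fold change -3.59, SE 0.25, adjusted p = 1.63e-15). The invariant chain Cd74, which escorts these proteins, was 0.184, 1.33 and 3.41 CPM in Cort_ATGLi, against 10.2, 20.2 and 25.1 CPM in EtOH_ATGLi (log2 fold change -3.58, SE 0.29, adjusted p = 1.13e-13). In each, every vehicle library exceeded every Cort_ATGLi library, and p41 was the lowest library for all 4, at 0.184 CPM for H2-Aa, H2-Eb1 and Cd74 and 0.460 CPM for H2-Ab1. Without p41 the log2 fold changes were -3.48, -3.47, -3.47 and -3.41 in that order. Of 10 class II genes, 6 fell, among them the peptide loaders H2-DMa (-1.47, SE 0.22) and H2-DMb1 (-2.2, SE 0.37), and 1 rose, the promoter-binding factor Rfx5 (0.53, SE 0.17).

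The promoters of H2-Aa and H2-Eb1 are shown because these genes fell together. Windows and build are as above, and capitals mark CTGATTGG, the Y box of class II promoters.
H2-Aa: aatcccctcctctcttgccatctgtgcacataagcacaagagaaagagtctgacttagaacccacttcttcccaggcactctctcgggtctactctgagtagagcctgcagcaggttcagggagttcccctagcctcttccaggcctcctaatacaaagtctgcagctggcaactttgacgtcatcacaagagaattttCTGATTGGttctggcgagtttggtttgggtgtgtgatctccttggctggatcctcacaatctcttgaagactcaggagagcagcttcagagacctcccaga
H2-Eb1: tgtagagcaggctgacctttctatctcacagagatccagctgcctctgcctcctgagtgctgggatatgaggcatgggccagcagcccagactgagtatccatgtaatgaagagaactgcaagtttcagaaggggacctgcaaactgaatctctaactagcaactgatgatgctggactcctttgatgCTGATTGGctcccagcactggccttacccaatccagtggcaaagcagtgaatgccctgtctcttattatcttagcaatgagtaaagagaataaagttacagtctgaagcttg
The match starts 51 bases before the start in H2-Aa (chr17:34287774-34288073, minus strand) and 62 bases before it in H2-Eb1 (chr17:34305617-34305916, plus strand). Searched on both strands, CTGATTGG was held by 4.1% of all promoters and 5.11% of promoters of genes tested. The match says nothing of which factor was bound.

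Some immune cell markers fell as the class II genes did, and their part in that result was not tested. Ighm, the heavy chain of B cell IgM, was 1.01, 2.76 and 5.07 CPM in Cort_ATGLi, against 14.1, 22.3 and 64.2 CPM in EtOH_ATGLi (log2 fold change -3.39, SE 0.44, adjusted p = 4.38e-08), without overlap. Of 9 B cell markers 4 were in the table, and their sum was 1.68 to 6.72 CPM in Cort_ATGLi and 16.9 to 66.2 CPM in EtOH_ATGLi, most of it Ighm, and none of the 4 was at 0 in every library. Only 2 B cell markers were tested, of which 1, Ighm, passed. Of 13 macrophage and monocyte markers tested, 7 fell and 1 rose, and the 14 in the table summed to 66.5 to 248.7 CPM in Cort_ATGLi and 92.2 to 145.6 CPM in EtOH_ATGLi, with overlap. The pan-leukocyte gene Ptprc was 0.129, 0.675 and 1.2 CPM in Cort_ATGLi, against 0.725, 2.02 and 3.0 CPM in EtOH_ATGLi (log2 fold change -1.62, SE 0.28, adjusted p = 6.37e-06). Cd163, a scavenger receptor of resident macrophages, was the member that rose, at 0.46 (SE 0.17) with all libraries, and it missed the threshold at 0.28 (SE 0.14, adjusted p = 0.133) without p41, and without EtOH_ATGLi p05, p06, p07, p09, p10 or p13 or Cort_ATGLi p13, p17 or p47 (0.39 to 0.46, adjusted p from 0.0501 to 0.0866). The call of Cd163 was also lost with upper-quartile scaling (adjusted p = 0.0621) and in the atglistatin libraries alone (adjusted p = 0.0852). Cd209a, a dendritic cell lectin, was 0, 0 and 0.351 CPM in Cort_ATGLi, against 0.483, 0.707 and 1.69 CPM in EtOH_ATGLi (log2 fold change -3.11, SE 0.48, adjusted p = 6.96e-07). Only 2 of 8 dendritic cell markers were tested, and the other did not pass (log2 fold change -0.09). The 3 dendritic cell markers counted summed to 3.86 to 10.06 CPM in Cort_ATGLi and 5.73 to 9.18 CPM in EtOH_ATGLi, with overlap. Of 12 T and NK cell markers, 0 were tested. Retnla, a secreted protein of alternatively activated macrophages and fat, was 1.01, 4.58 and 9.05 CPM in Cort_ATGLi, against 26, 41.3 and 55.8 CPM in EtOH_ATGLi (log2 fold change -3.03, SE 0.27, adjusted p = 2.01e-12), without overlap.

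Class I genes, which present peptides to killer T cells, fell as well. Of 17 MHC class I presentation genes, 12 fell and 1 rose, with a median of -0.46, and the groups overlapped in each of them. H2-D1, a classical class I heavy chain, was 37, 46.9 and 61.4 CPM in Cort_ATGLi, against 49.5, 65.8 and 86.2 CPM in EtOH_ATGLi (log2 fold change -0.46, SE 0.089, adjusted p = 4.90e-05). H2-Q7 fell by 1.49 (SE 0.28), and reads could be shared with its near-identical copies. Of 35 interferon response genes, 4 rose (11.4%) and 7 fell (20.0%), near the 15% of all genes called each way. Without p41, 2 rose. The interferon-gamma-inducible GTPase genes Gbp4 and Iigp1 fell by 2.85 (SE 0.31) and 1.82 (SE 0.23), both without overlap, as did the transcription factor Irf1 by 0.72 (SE 0.15) with overlap. Irf7 and Ifit1, known as targets of type I interferon, rose by 1.08 (SE 0.25) and 0.76 (SE 0.22). Irf7 overlaps Phrf1 (12.1 CPM), which was more abundant, on the other strand.

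Other resident cells showed smaller shifts. Of 8 satellite cell markers tested, 4 rose and 2 fell, and their sum was 82.9 to 172.3 CPM in Cort_ATGLi and 60.0 to 82.7 CPM in EtOH_ATGLi, so that the ranges met without overlapping. Cdh15, M-cadherin, was 13.8, 18.4 and 39.7 CPM in Cort_ATGLi, against 8.33, 9.94 and 14.6 CPM in EtOH_ATGLi (log2 fold change 0.90, SE 0.13, adjusted p = 7.17e-08), and Itga7 rose by 0.59 (SE 0.13), while Pax7, the defining transcription factor of quiescent satellite cells, fell by 0.79 (SE 0.26) on the log2 scale. Of 12 endothelial markers 5 fell and 1 rose, with Flt1, a VEGF receptor, at 0.49 (SE 0.12) and Emcn, endomucin, at -0.53 (SE 0.14). Vegfa, the growth factor of vessels, was 28.2, 57.6 and 68.4 CPM in Cort_ATGLi, against 53.4, 60.1 and 77.1 CPM in EtOH_ATGLi and did not pass (log2 fold change -0.26, SE 0.11, adjusted p = 0.0785), though it did with upper-quartile scaling (-0.30, adjusted p = 0.0407) and without Cort_ATGLi p48 (-0.29, adjusted p = 0.0484). Of 10 smooth muscle and pericyte markers 3 fell and 1 rose. The one that rose was desmin, Des, at 2369, 3516 and 5206 CPM in Cort_ATGLi, against 1595, 2226 and 2419.8 CPM in EtOH_ATGLi (log2 fold change 0.79, SE 0.12, adjusted p = 3.11e-07), which myofibres express as well. Among 8 adipocyte markers 2 rose, Cidec and leptin, Lep, which was 3.24, 8.34 and 17.9 CPM in Cort_ATGLi, against 0.338, 1.81 and 4.83 CPM in EtOH_ATGLi (log2 fold change 2.16, SE 0.31, adjusted p = 3.54e-07), while the summed adipocyte level overlapped at 51.4 to 380.4 CPM in Cort_ATGLi and 63.9 to 348.1 CPM in EtOH_ATGLi.

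Cell cycle and stress lists held single strong members. Of 22 cell cycle genes, 5 rose (22.7%) and 4 fell (18.2%), where 15% of all genes were called each way. Besides Cdkn1a, the antiproliferative gene Btg2 rose by 1.15 (SE 0.22). Ccnd1, cyclin D1, was 0.751, 1.36 and 2.67 CPM in Cort_ATGLi, against 2.61, 7.22 and 10.6 CPM in EtOH_ATGLi (log2 fold change -2.24, SE 0.18, adjusted p = 8.33e-15), and it overlaps LTO1 (4.49 CPM) on the other strand. Of 26 heat shock and DnaJ genes, 11 rose and 3 fell. The small heat shock proteins of muscle differed, with Cryab, which protects desmin filaments, at 1556, 1767 and 3996 CPM in Cort_ATGLi, against 739, 981 and 1256 CPM in EtOH_ATGLi (log2 fold change 1.02, SE 0.15, adjusted p = 4.02e-07) and an overlap with Hspb2 (46.2 CPM) on the other strand, Hspb6 higher by 0.76 (SE 0.11) and Hspb8 lower by 0.43 (SE 0.11). The integrated stress response list had 4 of 21 genes higher and 3 lower, but 1 higher without p41. Leaving p41 out ended the calls of Xbp1 (0.20, SE 0.084, adjusted p = 0.0676) and of the chaperone genes Hspa5 (0.18, SE 0.077, adjusted p = 0.0754) and Hsp90b1, and that of Hspa5 was also lost with upper-quartile scaling (adjusted p = 0.0593). Among imprinted growth genes, 2 of 17 rose and 5 fell. The growth-restraining RNA H19 was 509, 661 and 1769.6 CPM in Cort_ATGLi, against 257, 368 and 554 CPM in EtOH_ATGLi (log2 fold change 0.96, SE 0.18, adjusted p = 3.05e-05), and Dlk1, a membrane protein of immature cells, fell by 1.45 (SE 0.28).

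**Figure D4:**
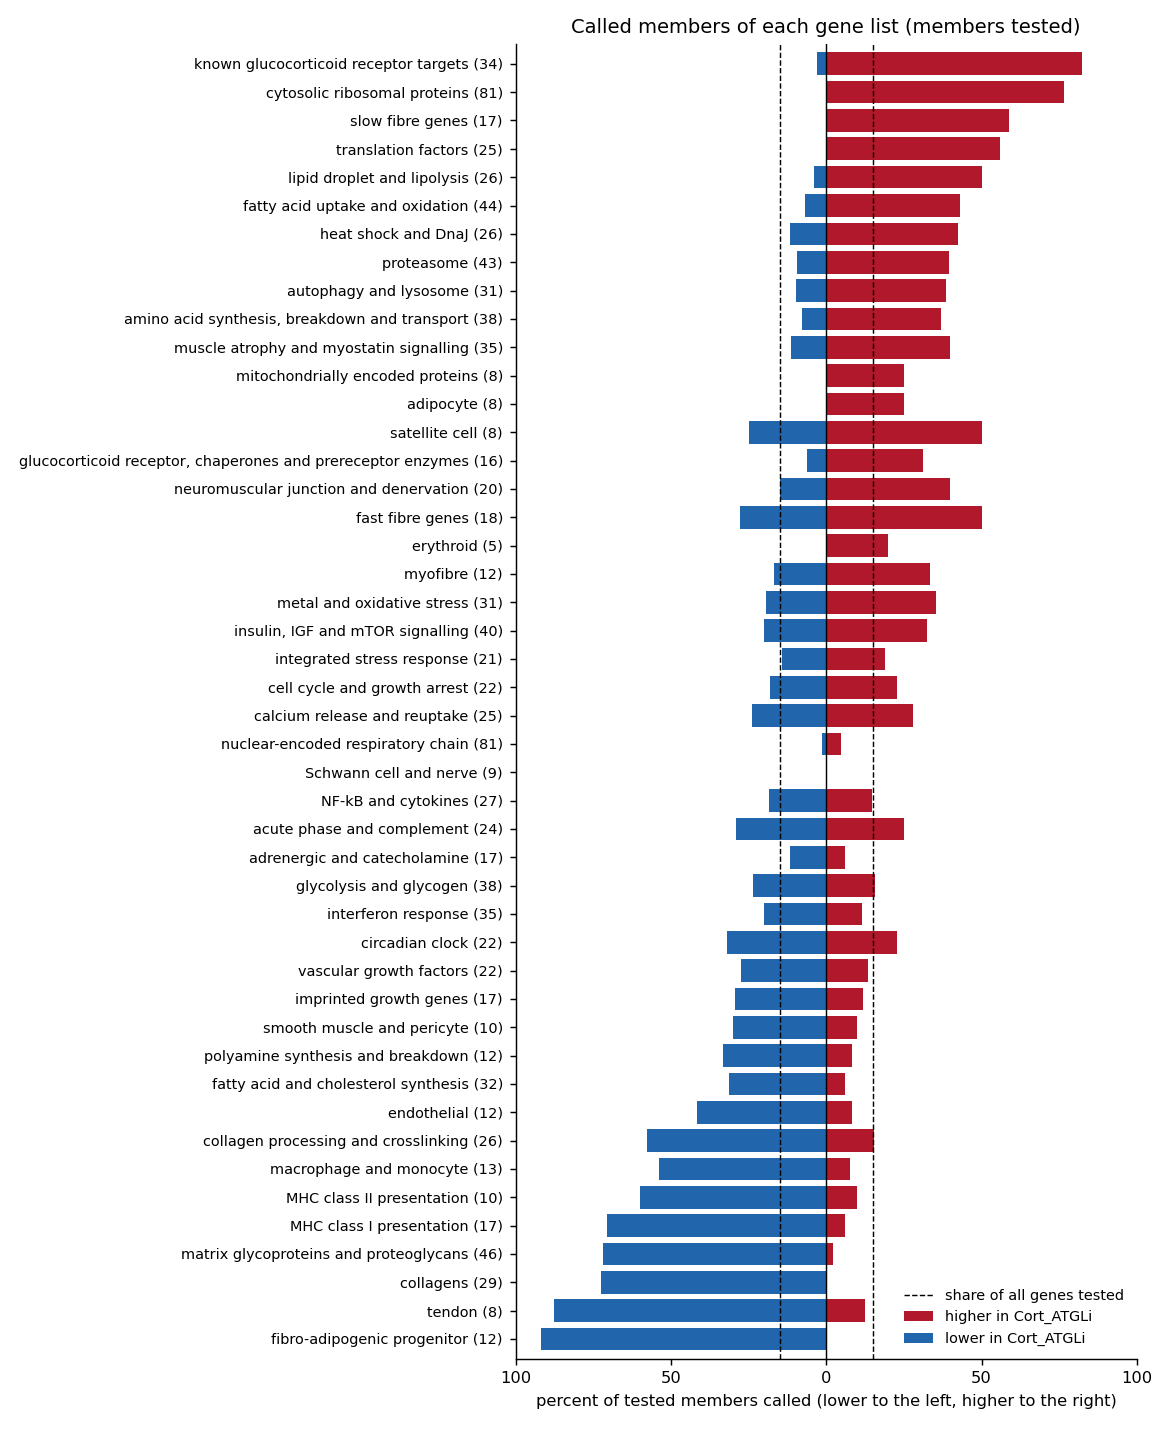
Percent of the tested members of each gene list called higher in Cort_ATGLi (red, to the right) and lower (blue, to the left), for the 46 lists with at least 5 tested members, whose number is in brackets. The dashed lines mark the 15% of all genes called in each direction; receptor targets (28 of 34 higher) are at the top and fibro-adipogenic progenitor markers (11 of 12 lower) at the bottom.

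The response was set beside that of mice given corticosterone without atglistatin (Cort_CON against EtOH_CON), which shares no library with it. There 2384 genes were higher (18.9%) and 2454 lower (19.5%). The difference between the 2 responses, tested gene by gene in the same fit, passed for 5 genes (0.0397%), with the response higher on atglistatin in 3 (0.0238%) and lower in 2 (0.0159%), and 695 genes had an unadjusted p below 0.05. With DESeq2 18 genes passed. Fkbp5 rose on both diets, and its rise was smaller on atglistatin. That rise was 2.47 (SE 0.15) against 3.53 (SE 0.16) on the control diet (difference -1.07, SE 0.20, adjusted p = 0.0121). Mean Fkbp5 in vehicle mice was higher on atglistatin, at 49.4 CPM in EtOH_ATGLi and 28.7 CPM in EtOH_CON. With corticosterone it was 273 CPM in Cort_ATGLi and 332 CPM in Cort_CON. The smaller rise thus includes a higher vehicle level, and its 2 parts were not tested separately. Tmem52, a transmembrane protein gene, was 90.1, 125 and 147 CPM in Cort_ATGLi, against 37, 59.1 and 68.8 CPM in EtOH_ATGLi. Its rise too was smaller on atglistatin, 1.11 against 1.68 on the control diet (difference -0.57, SE 0.12, adjusted p = 0.0427). This difference missed the threshold without EtOH_ATGLi p05, p06, p07, p08, p11 or p14 or Cort_ATGLi p13, p14, p25, p38, p40, p42 or p48 (-0.53 to -0.57, adjusted p from 0.0507 to 0.104).

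The other 3 genes fell on the control diet and did not pass on atglistatin. Sparc, a collagen-binding matrix protein, was 187, 239 and 278 CPM in Cort_ATGLi, against 169.8, 232 and 276 CPM in EtOH_ATGLi with the groups overlapping, and had a log2 fold change of 0.074 (SE 0.093) on atglistatin and -0.63 (SE 0.092) on the control diet (difference 0.70, SE 0.13, adjusted p = 0.0121). Itgb5, an integrin subunit, was at 0.046 (SE 0.070) on atglistatin and -0.45 (SE 0.070) on the control diet (difference 0.50, SE 0.10, adjusted p = 0.0176). Lonrf1, a RING finger protein gene, was at -0.11 (SE 0.12) and -0.95 (SE 0.12) on the same diets (difference 0.84, SE 0.17, adjusted p = 0.0176). The differences of Itgb5 and Lonrf1 missed the threshold without EtOH_ATGLi p14 (0.48 and 0.80, adjusted p = 0.0507 for both). With 1 library left out the count ranged from 2, without EtOH_ATGLi p14, to 7, without EtOH_ATGLi p12 or without Cort_ATGLi p41. Of the Cort_CON mice 9 of 14 were labelled diabetic, and no mouse of the other groups was, so diet and diabetic state cannot be told apart in this difference.

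Counts of calls by list are set side by side for the 2 diets. Receptor targets had 28 higher on atglistatin and 30 on the control diet, with median log2 fold changes of 1.12 and 1.45. Collagens had 21 lower on atglistatin and 24 on the control diet (medians -1.08 and -1.3), and ribosomal protein genes had 62 and 70 higher. No member of any of the 50 lists was called in opposite directions on the 2 diets. Among genes with the largest changes, Lcn2 was at 6.13 on atglistatin and 6.43 on the control diet, H2-Aa at -3.59 and -4.11, and Ighm at -3.39 and -2.02. None of these 3 differences passed (adjusted p from 0.872 to 0.999).

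**Figure D5:**
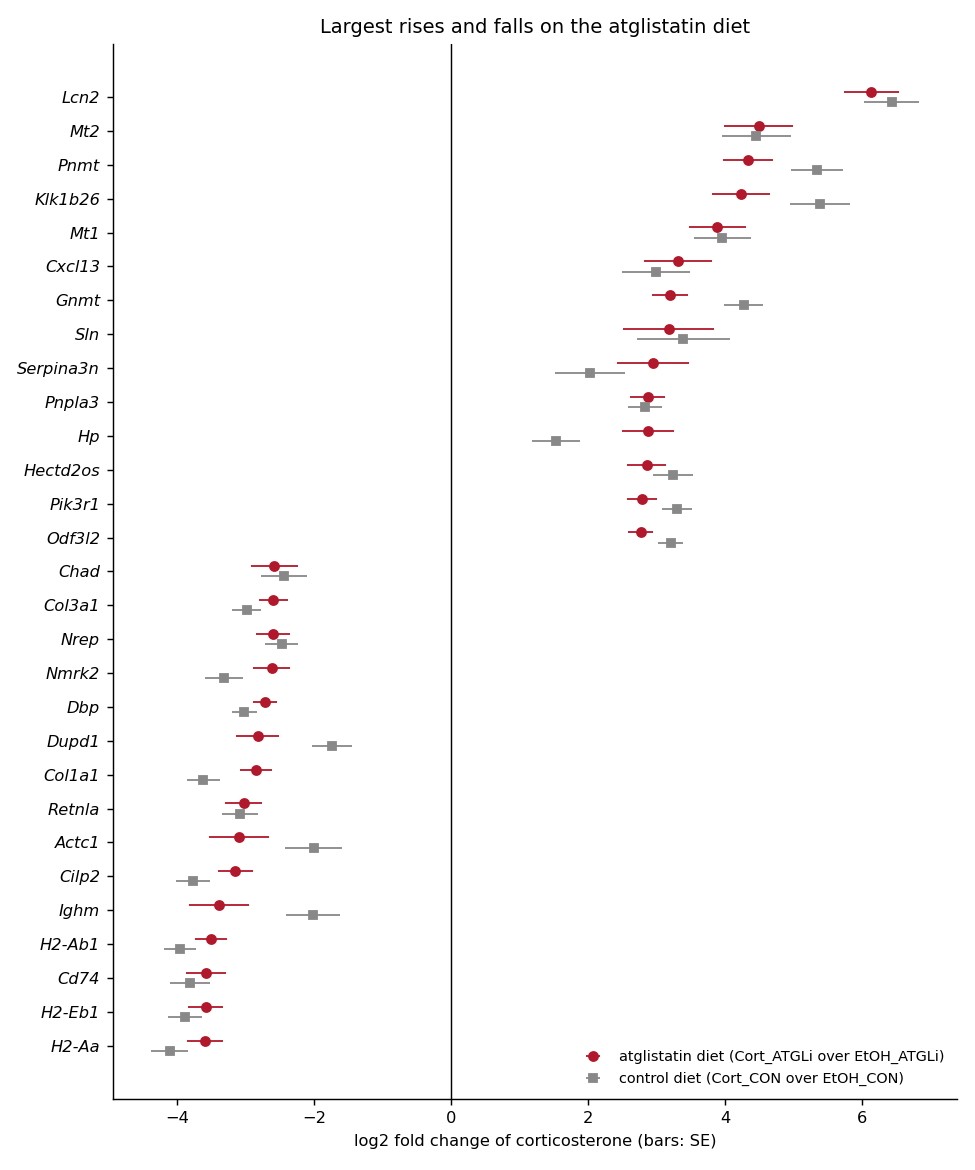
Log2 fold change of corticosterone with its SE for 14 of the 15 largest rises and the 15 largest falls on atglistatin, in red circles for the atglistatin diet and in grey squares, just below, for the control diet. All 29 genes lie on the same side of 0 on both diets, with Lcn2 at 6.13 and 6.43 at the top and H2-Aa at -3.59 and -4.11 at the bottom.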

How the data were processed

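The authors deposited a table of read counts per gene for 48 QuantSeq 3′ libraries of gastrocnemius RNA (50 bp forward reads, per the labels), and the submitters' processing notes name the GRCm38 genome build, R 3.6.1 and DESeq2 1.24.0. The aligner, the counting tool and its strand setting were not given in the sources used here. Columns were matched to samples by name and grouped by diet and water treatment. The authors' deposited normalised table was not used here, and no column of counts was left out. Of 14125 genes, 12592 passed edgeR's filter (at least 10 counts in enough libraries, 15 in total). Gene positions and names come from GENCODE M21 on GRCm38 (14094 IDs had a symbol) and promoters from RefSeq on GRCm38.p6.

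The test was edgeR's quasi-likelihood F test (edgeR 4.0.16, limma 3.58.1, R 4.3.3) with TMM scaling, fitted on all 48 libraries as 4 groups, with Benjamini-Hochberg adjustment over all genes tested and a threshold of 0.05. CPM used the TMM-scaled library sizes and are not scaled by gene length, so levels of different genes are not compared. The scripts' tests were checked on simulated counts. Glucose and insulin were compared by two-sided permutation tests with 100000 resamples, or 20000 where 1 library was left out. Counts that were even in nearly all libraries were used as deposited, and as an alternative were halved.

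Genes were named by rule: the 15 largest rises and falls with a mean of at least 5 CPM over the 24 libraries, the 5 largest rises and falls in mean CPM, up to 5 diet differences each way, 20 genes always named, and from each list the 3 with the smallest p in each direction. Some genes that this rule selects are not reported here. Arrdc3, Cebpd, Ddit4, Pdgfra, Plin5, Cidea, H2-DMa, H2-DMb1, Myh7, Col4a1, Col4a2, Abhd5 and Hsp90b1 were chosen from the lists after their values were seen. The members, gene lists and tests were chosen with earlier results of these data known. Alternatives were DESeq2 1.42.0, limma-voom with and without the library number as a block, median-of-ratios and upper-quartile scaling, no filter and a stricter filter, halved counts, the 24 atglistatin libraries alone, and each of the 24 libraries left out in turn.

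The numbers 13 and 14 occur in both groups. Deviations of same-numbered libraries from their group means did not go together (r = 0.041 and -0.022), so numbers were not taken as pairs. Of 136 pairs of libraries within groups, none agreed within sampling noise (lowest chi-square per degree of freedom 7.87).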

Additional observations from a re-analysis of the deposited data

Results flagged for a closer look

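Screened were 236 groups of 10 EtOH_ATGLi libraries, 1 per gene and 1 each for fed glucose and insulin. Of these, 17 held a library far from the other 9 by Dixon's criterion, all for genes, and chance flags about 1 in 20 groups. Values are CPM. EtOH_ATGLi p08 was high in Stip1 at 44.2 (others 37 to 40.6), Mylk2 at 618 (others 368 to 459), Atf3 at 6.52 (others 1.52 to 3.04) and Nr4a1 at 123 (others 49.7 to 71.9), and low in Tpm1 at 19100 (others 22600 to 27200). EtOH_ATGLi p12 was high in Phkg1 at 201 (others 146 to 168) and in Smox at 486 (others 151 to 276), and low in Hspb6 at 1090 (others 1310 to 1550). EtOH_ATGLi p09 was low in Lcn2 at 0.232 (others 0.677 to 1.33), Cspg4 at 1.51 (others 2.75 to 5.36) and Mmp9 at 0.812 (others 1.76 to 3.71). Single genes stood out in other libraries. Orai1 was low in p05 at 32.5 (others 42 to 51.5), Peg3 low in p06 at 2.58 (others 3.77 to 5.75), and Dlk1 high in p07 at 2.9 (others 0.809 to 1.47). Nmrk2 was low in p11 at 24.3 (others 56.3 to 125), Chad high in p13 at 61.3 (others 16 to 30.4), and Hbb-bs high in p14 at 970 (others 402 to 575). Groups of 14 libraries were not screened.

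The response to corticosterone differed between the diets for 5 genes by the test of the difference itself. On the log2 scale, the response on atglistatin minus that on the control diet was -1.07 for Fkbp5, -0.57 for Tmem52, 0.70 for Sparc, 0.84 for Lonrf1 and 0.50 for Itgb5. In Cort_CON 9 of 14 mice were labelled diabetic and in Cort_ATGLi none. Diet and diabetic state cannot be told apart between these groups as a whole. Neither vehicle group held a diabetic mouse, and mean Sparc was 354 CPM in EtOH_CON and 225 CPM in EtOH_ATGLi.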

How the results depend on the processing

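Direction and side of the threshold held under every alternative run for 225 of 255 results for single genes. Of the comparisons of those results with an alternative, 8249 did not change, 134 lost a call, 9 gained one and 1 changed sign. The number of genes changed at least 2-fold was 646 as reported and 422 with the stricter filter, which tests fewer genes (10650, against 12592). The number of genes whose response differed between diets was 5 as reported and 18 with DESeq2, for which the cause was not tested. Hsd11b1, not called, changed sign without Cort_ATGLi p41 (-0.0011), and reached 0.21 without Cort_ATGLi p24. With upper-quartile scaling 1485 genes were higher and 2259 lower, against 1887 and 1894 as reported.

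With each library left out in turn, the genes called numbered 3464 to 3796, those higher 1679 to 1905, those lower 1724 to 1948, those changed at least 2-fold 622 to 670, and those differing between diets 2 to 7. The insulin difference was 15.2 to 17.8 and that of glucose -8.29 to -1.74.

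The library numbers 13 and 14 did not pair the samples, and with the number as a block limma-voom called 3941 genes, against 3848 without the block. Crossing the numbers gave r of 0.038 and -0.018.

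Before TMM scaling, between 10 and 24 counts stand behind 1 CPM, so differences in genes near that level are the least certain. Neither the labels nor the files give muscle mass or cell numbers.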
